A study of Mus musculus with 18 samples.

Results

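The GABA interneuron marker genes are 8 listed transcripts, *Gad1*, *Gad2*, *Slc32a1*, *Pvalb*, *Vip*, *Calb2*, *Lhx6* and *Reln*, chosen by name and not by their values. All 8 were found among the 38561 genes counted, and all 8 were among the 17545 genes tested, those with at least 10 reads in at least 1 library. The libraries were made from bulk tissue of adult Pcm1-/- mice and their WT littermates, 3 libraries per genotype from each of the frontal cortex, striatum and hippocampus, 18 in all. The strain is labelled C57 Bl6J. Per the methods of the study, the Pcm1 allele came from gene-trap embryonic stem cells backcrossed to C57BL/6J for at least 3 generations, and mice of both sexes were used. Y-linked genes summed to over 5 CPM in 1 of the 3 libraries of each group. That library was replicate 3 in WT striatum and replicate 2 in every other group. Sex was not a separate term in any model. The deposited file names tie the 18 libraries to 6 animals, each giving 1 library per region. No agent was given to any group.

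Inhibitory neurons make GABA from glutamate with the decarboxylases encoded by *Gad1* (GAD67) and *Gad2* (GAD65), and load it into synaptic vesicles with the transporter encoded by *Slc32a1* (VGAT). In the cortex and hippocampus these genes mark local interneurons, whereas in the striatum the projection neurons are GABAergic as well, so the same transcripts come mostly from another class of cell there. *Lhx6* is a homeobox gene of interneurons born in the medial ganglionic eminence, *Pvalb* marks fast-spiking cells that arise from that pool, *Vip* marks interneurons that mainly inhibit other interneurons, *Calb2* (calretinin) marks a partly shared set, and *Reln* encodes the secreted protein reelin, made by several interneuron classes in the adult. In bulk tissue fewer cells of a type and less RNA per cell cannot be told apart.

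Chromosome 2 of GRCm38 holds 4 of the 8 genes: *Gad1* (70553072 to 70602014, plus strand), *Gad2* (22622205 to 22693874, plus), *Slc32a1* (158610767 to 158615748, plus) and *Lhx6* (36081953 to 36105408, minus). *Pvalb* is on chromosome 15 (78191114 to 78206400, minus), *Vip* on chromosome 10 (5639218 to 5647617, plus) and *Reln* on chromosome 5 (21884454 to 22344702, minus). *Calb2* (110137502 to 110168210, minus) shares chromosome 8 with *Pcm1*, at a distance of 68.8 Mb. Antisense transcripts overlap *Gad1*, *Slc32a1* and *Reln*, and the strand setting of the counting is not given in the sources used here. *Gad1os* received 1 to 22 reads per library and *Gm14205*, opposite *Slc32a1*, 0 to 2, against at least 6261 and 1357 reads on the genes themselves. *Gm10475* and *Gm16110*, antisense to *Reln*, received 0 to 5 and 0 to 2 reads, against at least 780 on *Reln*.

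Upstream sequence is shown for the 3 genes of GABA synthesis and vesicle loading, which were higher together in the striatum, and for *Vip*, which had the widest range of levels across regions. Each window is the 250 bases before the start annotated by RefSeq on GRCm38.p6, on the gene's own strand, with a TATA motif (TATAAA, or TTTATA for the other strand) and a cAMP response element core (TGACGTC, or GACGTCA) in capitals. The RefSeq start can differ from the gene positions given above. The *Gad1* window lies inside the *Gad1* gene as given there, and the *Gad2* window runs past the given start of *Gad2*.
Gad1 (chr2:70561879-70562128): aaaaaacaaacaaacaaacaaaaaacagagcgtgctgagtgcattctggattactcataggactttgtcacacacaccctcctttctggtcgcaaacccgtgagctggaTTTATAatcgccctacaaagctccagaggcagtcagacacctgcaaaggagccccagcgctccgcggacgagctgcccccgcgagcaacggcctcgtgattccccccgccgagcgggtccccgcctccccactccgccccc
Gad2 (chr2:22622077-22622326): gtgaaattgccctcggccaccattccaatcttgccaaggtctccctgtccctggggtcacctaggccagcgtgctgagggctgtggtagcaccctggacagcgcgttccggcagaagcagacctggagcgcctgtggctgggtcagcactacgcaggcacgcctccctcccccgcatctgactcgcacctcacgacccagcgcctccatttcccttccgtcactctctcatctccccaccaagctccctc
Slc32a1 (chr2:158610508-158610757): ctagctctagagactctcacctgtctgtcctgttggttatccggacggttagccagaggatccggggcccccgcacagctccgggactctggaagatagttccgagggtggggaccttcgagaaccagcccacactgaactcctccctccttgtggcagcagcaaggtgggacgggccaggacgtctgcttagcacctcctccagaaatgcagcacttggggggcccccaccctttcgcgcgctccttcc
Vip (chr10:5638968-5639217): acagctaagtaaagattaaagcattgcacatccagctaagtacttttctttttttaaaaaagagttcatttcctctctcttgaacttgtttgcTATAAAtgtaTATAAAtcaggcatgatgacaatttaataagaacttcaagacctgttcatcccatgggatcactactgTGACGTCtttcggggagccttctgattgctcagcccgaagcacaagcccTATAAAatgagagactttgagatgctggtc
The *Vip* window had a GC content of 38.4% and 3 CpG dinucleotides, held TATAAA with its first base 30, 147 and 157 bases before the start, and held TGACGTC 79 bases before it. The *Gad1*, *Gad2* and *Slc32a1* windows had GC contents of 58.0%, 64.0% and 62.4% and 17, 13 and 12 CpG dinucleotides. Of these 3, the *Gad1* window held a TATA match, 141 bases before the start, and none held the cAMP response element core. Among 32851 promoter windows of this length, the median GC content was 52.4% with a median of 6 CpG dinucleotides, 12.4% held the TATA letters and 2.78% the cAMP response element core, on either strand. A match is a description of the sequence and not of a site in use. The same table had windows for 7 of the 8 genes, and *Calb2* was the gene without an entry.

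Counts on genes ranged from 24950537 to 33405081 per library. *Pcm1* itself, which checks the labels, had 3425 to 4919 reads in WT and 313 to 520 in Pcm1-/- libraries, and the 2 ranges did not overlap in any region. Sequencing lanes were spread over the genotypes in the frontal cortex and hippocampus, but all 3 WT striatum libraries ran on lane 5 and the 3 Pcm1-/- striatum libraries on lanes 3, 4 and 4, so within the striatum lane and genotype cannot be told apart. Levels are given as CPM, the usual library-size-scaled counts, computed with edgeR's TMM factors.

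**Figure D1:**
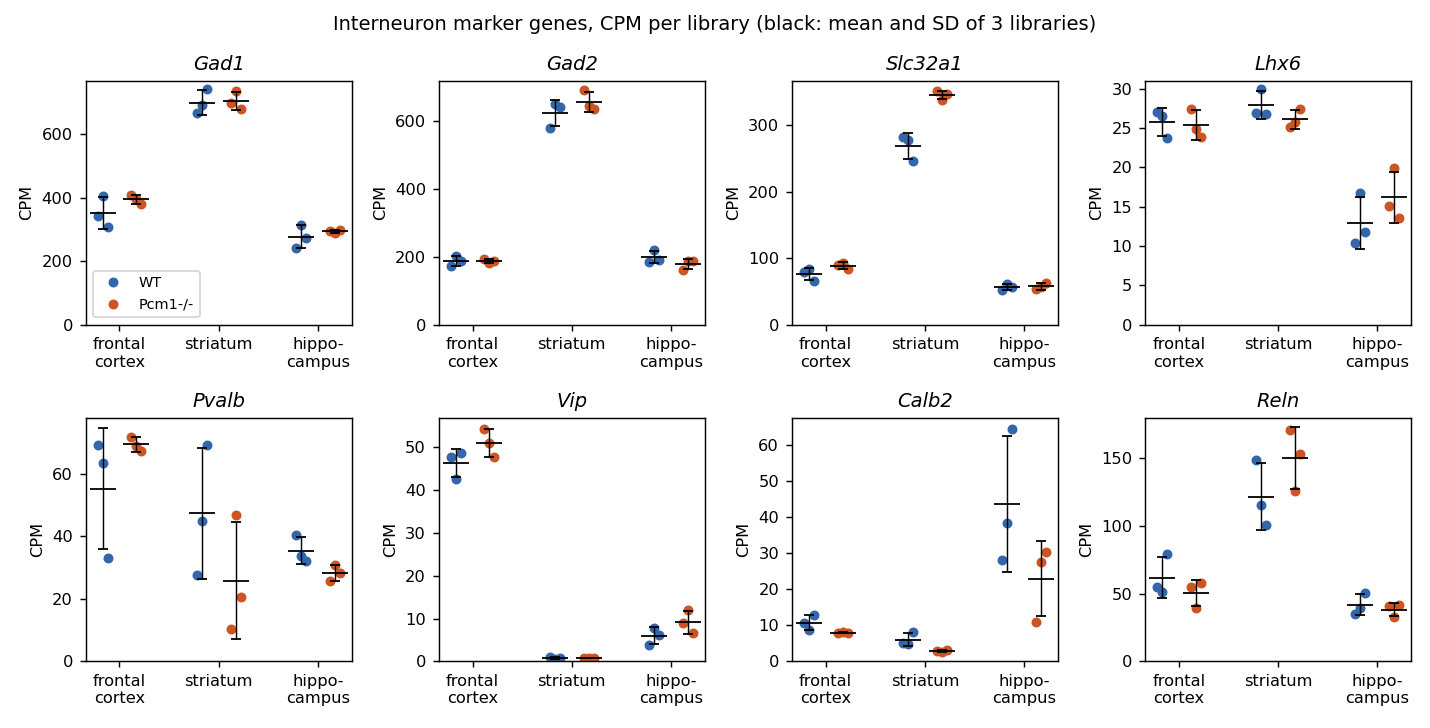
CPM (linear axes from 0) of each marker gene in the 18 libraries by region, WT in blue and Pcm1-/- in orange, with the mean and SD of 3 libraries in black. *Gad1*, *Gad2*, *Slc32a1* and *Reln* were highest in the striatum, *Vip* in the frontal cortex and *Calb2* in the hippocampus, in both genotypes.

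The genes of GABA synthesis and vesicle loading were highest in the striatum. In WT mice *Gad2* measured 579, 650 and 641 CPM in the striatum, 173, 202 and 186 CPM in the frontal cortex and 186, 219 and 191 CPM in the hippocampus. *Slc32a1* measured 282, 277 and 246 CPM in the striatum, 79.6, 83.4 and 66.4 CPM in the frontal cortex and 52.3, 60.5 and 56.6 CPM in the hippocampus. *Gad1* measured 700 ± 39.2 CPM in striatum, 352 ± 49.7 in frontal cortex and 276 ± 36.4 in hippocampus (SD, n = 3 each). For all 3 genes every striatal library lay above every library of the other regions. In WT striatum over frontal cortex the log2 fold change was 0.99 ± 0.12 (SE) for *Gad1*, 1.74 ± 0.096 for *Gad2* and 1.81 ± 0.10 for *Slc32a1*, with adjusted p = 0.000113, 4.24e-07 and 4.54e-07 in edgeR's quasi-likelihood test. Pcm1-/- mice had log2 fold changes of 0.84, 1.81 and 1.97 in the same order.

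Between the frontal cortex and hippocampus these genes differed less. *Slc32a1* was lower in the hippocampus, by 0.44 ± 0.10 on the log2 scale in WT mice (adjusted p = 0.00792, edgeR) and by 0.63 ± 0.070 in Pcm1-/- mice (adjusted p = 4.96e-05). *Gad2* did not pass the test in either genotype, with log2 fold changes of 0.083 ± 0.094 and −0.078 ± 0.074. *Gad1* passed in Pcm1-/- mice at −0.43 ± 0.059 (adjusted p = 0.000198, edgeR). In WT mice *Gad1* had −0.35 ± 0.12 with adjusted p = 0.0540, and 0.0133 with the animal as a block.

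The 2 decarboxylases stood in different proportions in the 3 regions. The log2 ratio of *Gad1* to *Gad2* CPM was 0.91 ± 0.15 in WT frontal cortex, 0.47 ± 0.082 in WT hippocampus and 0.17 ± 0.069 in WT striatum (SD, n = 3 each), without overlap between regions. Pcm1-/- libraries had 1.07 ± 0.059, 0.72 ± 0.13 and 0.10 ± 0.088 in that order. In the hippocampus the ratio was 0.38 to 0.52 in WT and 0.62 to 0.87 in Pcm1-/- libraries. The genotypes did not overlap there, nor, by a narrow margin, in the frontal cortex (highest WT value 1.006, lowest Pcm1-/- value 1.012), and they overlapped in the striatum. A two-sided exact permutation test gave p = 0.1 for hippocampus and for frontal cortex, the smallest that 3 libraries against 3 allow, and p = 0.4 in the striatum.

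*Vip* had the largest region difference of the 8 genes. It measured 47.6, 42.7 and 48.6 CPM in WT frontal cortex, 3.89, 7.83 and 6.25 CPM in WT hippocampus and 0.96, 0.58 and 0.70 CPM in WT striatum. The striatal values rest on 16 to 27 reads per library. *Vip* was 61.9-fold lower in WT striatum than in WT frontal cortex (log2 fold change −5.95 ± 0.27, adjusted p = 1.35e-07, edgeR) and 58.6-fold lower in Pcm1-/- mice (−5.87 ± 0.22, adjusted p = 6.12e-09). In the hippocampus it was 7.73-fold lower than in the frontal cortex in WT mice (adjusted p = 8.57e-06) and 5.63-fold lower in Pcm1-/- mice (adjusted p = 1.20e-06).

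*Calb2* had another order, with the hippocampus first. WT hippocampus measured 28.0, 38.4 and 64.6 CPM, WT frontal cortex 10.6, 8.79 and 12.9 CPM and WT striatum 5.04, 4.90 and 8.31 CPM. Hippocampus over frontal cortex gave a log2 fold change of 2.02 ± 0.31 in WT mice (adjusted p = 0.000824, edgeR) and 1.53 ± 0.30 in Pcm1-/- mice (adjusted p = 0.00187). The striatum was lower than the frontal cortex in Pcm1-/- mice, by 1.47 ± 0.33 on the log2 scale (adjusted p = 0.00353). In WT mice the 2 regions did not overlap and the log2 fold change was −0.82 ± 0.32 with adjusted p = 0.0618, or 0.0410 with the animal as a block.

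*Reln* was highest in the striatum. It measured 149, 115 and 101 CPM there in WT mice, 55.2, 51.4 and 79.3 CPM in the frontal cortex and 35.2, 39.7 and 50.5 CPM in the hippocampus. Striatum over frontal cortex gave a log2 fold change of 0.97 ± 0.20 in WT mice (adjusted p = 0.00285, edgeR) and 1.57 ± 0.15 in Pcm1-/- mice (adjusted p = 8.74e-06). Hippocampus against frontal cortex gave −0.57 ± 0.20 in WT mice (adjusted p = 0.0553) and −0.41 ± 0.15 in Pcm1-/- mice (adjusted p = 0.0546). With the animal as a block these became 0.000988 and 0.00110.

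*Lhx6* was alike in the frontal cortex and striatum and lower in the hippocampus. WT frontal cortex had 25.7 ± 1.76 CPM, WT striatum 27.9 ± 1.77 and WT hippocampus 12.9 ± 3.32 (SD, n = 3 each). The hippocampus was lower than the frontal cortex by 0.99 ± 0.16 on the log2 scale in WT mice (adjusted p = 0.000977, edgeR) and by 0.66 ± 0.12 in Pcm1-/- mice (adjusted p = 0.00164). The striatum and frontal cortex differed by 0.12 ± 0.15 in WT and 0.043 ± 0.12 in Pcm1-/- mice, within the error.

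*Pvalb* varied widely between libraries in WT frontal cortex and in the striatum of both genotypes, with a highest value 2.09, 2.50 and 4.58 times the lowest, and little in Pcm1-/- frontal cortex (1.07 times). WT frontal cortex measured 69.2, 63.4 and 33.1 CPM, WT striatum 27.8, 45.0 and 69.4 CPM and WT hippocampus 40.3, 33.6 and 32.3 CPM. No region pair of the WT mice passed the test for *Pvalb*. In Pcm1-/- mice the frontal cortex had 71.9, 69.0 and 67.4 CPM, the striatum 10.2, 46.8 and 20.6 CPM and the hippocampus 25.8, 30.8 and 28.2 CPM. There the striatum was lower than the frontal cortex by 1.41 ± 0.38 on the log2 scale (adjusted p = 0.00985, edgeR) and the hippocampus by 1.30 ± 0.38 (adjusted p = 0.0194). The first value was −2.17 without replicate 2 of the Pcm1-/- striatum. The second call was lost without replicate 1 of the Pcm1-/- frontal cortex (adjusted p = 0.0545) or of the Pcm1-/- hippocampus (adjusted p = 0.0631). Between striatum and hippocampus of Pcm1-/- mice, without replicate 2 of the striatum, *Pvalb* was called lower in the striatum, by 0.87 on the log2 scale (adjusted p = 0.0119). Without striatal replicate 1 the sign turned (log2 fold change 0.27), as it did without striatal replicate 3 (0.019).

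Over the 8 genes, 5 passed the test between WT striatum and frontal cortex, where 41.5% of all tested genes did. The counts were 4 of 8 between hippocampus and frontal cortex (29.8% of all genes) and 7 of 8 between striatum and hippocampus (29.2%). In Pcm1-/- mice 7, 6 and 7 of 8 passed, where 54.3%, 41.5% and 45.0% of all genes did. Within single lanes, where both regions of a genotype had libraries, every member called in a region comparison kept its direction.

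**Figure D2:**
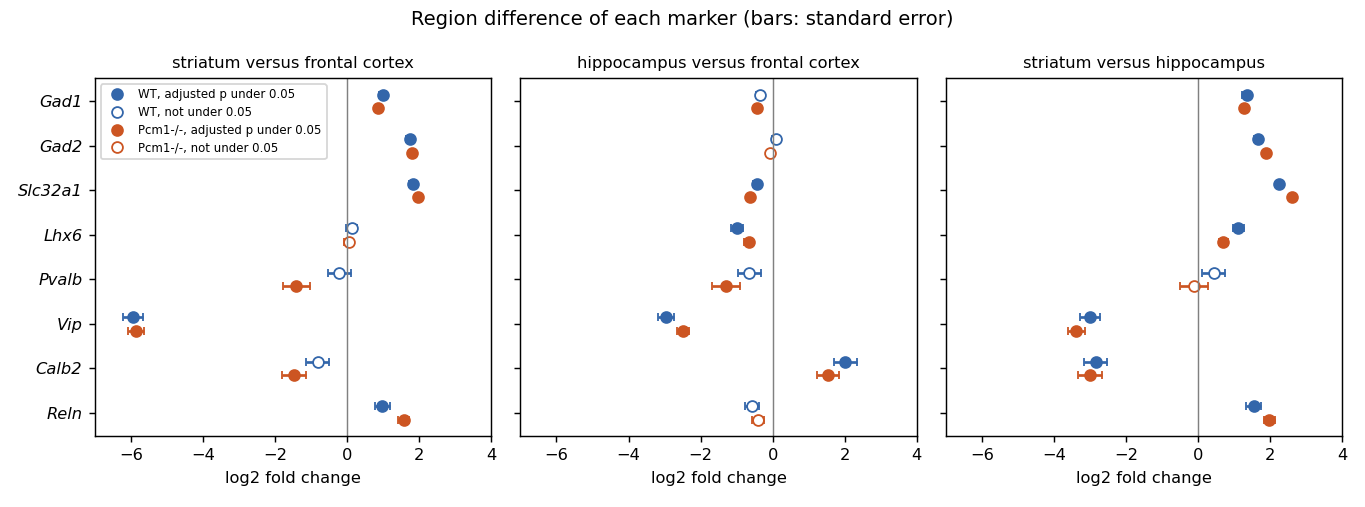
Log2 fold change of each marker gene between regions (x axis, bars are standard errors), WT in blue and Pcm1-/- in orange, filled where the adjusted p was under 0.05. *Vip* lies near −6 and *Slc32a1* near 2 in the striatum against the frontal cortex in both genotypes, and *Pvalb* is filled in Pcm1-/- mice alone in both comparisons with the frontal cortex, as are *Calb2* in that of the striatum and *Gad1* in that of the hippocampus.

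Per kilobase of exon, levels can be set between genes. In WT striatum the order was *Gad2* (106 CPM per kb), *Slc32a1* (95.9), *Gad1* (91.6), *Pvalb* (45.5), *Lhx6* (5.81), *Reln* (5.12), *Calb2* (3.49) and *Vip* (0.22). *Slc32a1* overlapped *Gad2* and *Gad1* and changed places with each between libraries, whereas *Gad2* lay above *Gad1* without overlap. *Lhx6* and *Reln* also overlapped and changed places, and in replicate 3 *Calb2* (4.77) was above *Reln* (4.24). In WT frontal cortex *Pvalb* came first at 53.1 CPM per kb, before *Gad1* (46.1), *Gad2* (31.8) and *Slc32a1* (27.3) by the means, and *Vip* reached 13.6. In replicate 3 of that group *Pvalb* had 31.8 CPM per kb, below *Gad1* at 40.4 and close to *Gad2* at 31.7. In WT hippocampus *Gad1* (36.2), *Pvalb* (34.0) and *Gad2* (33.8) were followed by *Calb2* (25.05) and *Slc32a1* (20.2), and *Vip* had 1.76. Of the first 3, *Pvalb* led in replicate 1 (38.7, against 31.6 for *Gad1* and for *Gad2*). It was below both in replicate 2 (32.3) and replicate 3 (31.0). The place of *Calb2* there rests on replicate 3, since its libraries had 16.1, 22.0 and 37.1 CPM per kb, below *Slc32a1* in replicate 1 (18.7) and above *Gad1* in replicate 3 (35.9). Per-length values rest on the union of annotated exons and carry whatever error that brings for genes with several isoforms.

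Loss of *Pcm1* was then compared with WT in each region. No marker gene passed the adjusted test in any region: the count was 0 of 8 in frontal cortex, where 1.74% of all tested genes were called, 0 of 8 in striatum (0.0285%) and 0 of 8 in hippocampus (0.0171%). The genotypes did not overlap for 1 of 8 genes (*Calb2*) in frontal cortex, 2 of 8 (*Slc32a1* and *Calb2*) in striatum and 1 of 8 (*Pvalb*) in hippocampus, where 21.3%, 19.0% and 17.1% of all genes did not overlap. At an unadjusted p under 0.05 there were 2, 2 and 1 of 8, where 15.3%, 13.5% and 9.89% of all genes had such a p. DESeq2 called 0, 2 and 0 of 8, against 4.88%, 3.84% and 1.54% of the genes it gave an adjusted p. In the order frontal cortex, striatum, hippocampus, the 8 genes had median log2 fold changes of 0.065, 0.046 and −0.067, beside −0.0066, −0.0023 and −0.00033 over all genes.

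*Gad1* and *Gad2* differed little between genotypes. In the frontal cortex *Gad1* measured 341, 406 and 309 CPM in WT and 408, 397 and 379 CPM in Pcm1-/- mice (log2 fold change 0.16 ± 0.092, adjusted p = 0.469, edgeR, 0.072 without WT replicate 3 and 0.28 without WT replicate 2). *Gad2* had means of 187 and 188 CPM there. In the striatum *Gad1* had means of 700 and 705 CPM and *Gad2* 623 and 657 CPM in WT and Pcm1-/- mice, and in the hippocampus *Gad1* had 276 and 294 and *Gad2* 199 and 179 CPM. The genotypes overlapped for both genes in every region, and the log2 fold changes of the striatum and hippocampus lay between −0.17 and 0.079.

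*Slc32a1* was the marker gene with the smallest p in the striatum. It measured 282, 277 and 246 CPM in WT and 350, 338 and 346 CPM in Pcm1-/- striatum, so every Pcm1-/- library was above every WT library. The log2 fold change was 0.36 ± 0.071 with adjusted p = 0.128 in edgeR and adjusted p = 0.000588 in DESeq2. Frontal cortex values were 79.6, 83.4 and 66.4 CPM against 89.2, 93.4 and 83.0 CPM, overlapping by 1 library (0.20 ± 0.087, adjusted p = 0.311, and 0.11 without WT replicate 3). In the hippocampus the log2 fold change was 0.0083 ± 0.091.

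Markers of striatal projection neurons, which express the same transporter, had higher values in the same libraries. Of 10 listed genes, 8 were higher in Pcm1-/- striatum at an unadjusted p under 0.05 (13.5% of all genes in either direction) and without overlap (19.0%), 0 passed the adjusted test, and their median log2 fold change was 0.33. Their summed level was 7186 to 8297 CPM in WT and 8626 to 9332 CPM in Pcm1-/- libraries, and no gene of the list was at 0. Their part in the *Slc32a1* difference was not tested.

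*Calb2* had lower mean levels in Pcm1-/- mice in all 3 regions. Frontal cortex libraries measured 10.6, 8.79 and 12.9 CPM in WT and 7.81, 8.09 and 7.83 CPM in Pcm1-/- mice. In the striatum the values were 5.04, 4.90 and 8.31 CPM against 2.86, 2.67 and 3.04 CPM. In both regions every Pcm1-/- library was below every WT library. In the hippocampus 28.0, 38.4 and 64.6 CPM in WT stood against 10.95, 27.7 and 30.4 CPM, with 1 WT library below the highest Pcm1-/- library. On the log2 scale the frontal cortex differed by −0.45 ± 0.14 (adjusted p = 0.158, edgeR), the striatum by −1.09 ± 0.23 (adjusted p = 0.140) and the hippocampus by −0.95 ± 0.41 (adjusted p = 0.509). DESeq2 gave the striatal value an adjusted p of 0.00234. Without WT replicate 3 of the region the *Calb2* values were −0.30 (frontal cortex) and −0.55 (hippocampus). With lane in the model they were −0.49 (frontal cortex) and −0.81 (hippocampus). In the striatum lane could enter only through 1 model of all 18 libraries, which gave −0.58. The 3 regions came from the same animals and are not independent repeats of this difference.

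Genes of neighbouring tissue also had lower mean levels in Pcm1-/- striatum and hippocampus. A list of 6 thalamic marker genes, *Tcf7l2*, *Prkcd*, *Rgs16*, *Slc17a6*, *Plekhg1* and *Synpo2*, summed to 113, 116 and 239 CPM in WT striatum and 91.3, 101 and 91.0 CPM in Pcm1-/- striatum. The WT striatal library with 239 CPM was replicate 3, which also had the highest *Calb2* of that group, and without it the *Calb2* log2 fold change was −0.80. In the hippocampus the list summed to 599, 234 and 512 CPM in WT and 130, 106 and 287 CPM in Pcm1-/- libraries, and *Tcf7l2* alone measured 108, 48.3 and 106 CPM against 6.77, 6.80 and 51.0 CPM. Striatal *Tcf7l2* measured 7.83, 8.97 and 27.1 CPM in WT and 8.18, 6.87 and 6.37 CPM in Pcm1-/- libraries, which overlapped. In each of these regions 5 of the 6 genes were lower in Pcm1-/- mice at an unadjusted p under 0.05, where 13.5% (striatum) and 9.89% (hippocampus) of all genes had such a p in either direction, and 0 passed the adjusted test. The library with the highest sum of its group had the highest *Calb2* of that group in WT striatum and in Pcm1-/- hippocampus (replicate 3 in both), and the lowest in WT hippocampus (replicate 1) and in Pcm1-/- striatum (replicate 2). In the frontal cortex the sums overlapped, at 50.1 to 59.8 CPM in WT and 53.3 to 58.9 CPM in Pcm1-/- libraries, while of the 6 genes 2 were lower and 1 higher in Pcm1-/- mice at an unadjusted p under 0.05 (15.3% of all genes), 3 lay below and 1 above WT without overlap (21.3% of all genes), and the median log2 fold change was −0.18. The list's part in the *Calb2* values was not tested.

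Other marker lists differed in either direction. Their counts before adjustment (p under 0.05) stand beside 13.5% of all genes in the striatum and 9.89% in the hippocampus, in either direction. In the striatum, genes lower in Pcm1-/- mice numbered 3 of 7 for excitatory neurons (summed level 19.8 to 90.7 CPM in WT and 13.97 to 22.6 in Pcm1-/- libraries), 4 of 6 for oligodendrocytes (8893 to 9123 against 5360.4 to 8810.5 CPM), 3 of 6 for astrocytes (1472 to 2038 against 1290 to 1401 CPM), 5 of 6 for microglia (386 to 543 against 343 to 394 CPM) and 2 of 6 for endothelial cells (192 to 245 against 192 to 206 CPM). For the hippocampus 3 of 6 endothelial genes were lower by this measure (164 to 237 against 148 to 160 CPM, median log2 fold change −0.42), 1 of 6 for oligodendrocytes (4690 to 9539 against 3561 to 5824 CPM, median −0.61), 2 of 6 for astrocytes (1996 to 2577 against 2005 to 2009 CPM, median −0.19) and 1 of 6 for microglia (313 to 442 against 293 to 323 CPM, median −0.22). A list of 5 genes of Cajal-Retzius cells, which express *Calb2* and *Reln*, summed to 19.1 to 28.2 CPM in WT and 7.5 to 18.9 CPM in Pcm1-/- hippocampus, with 2 of 5 lower before adjustment. Choroid plexus genes summed to 2145 to 6277 CPM in WT and 220 to 4158 CPM in Pcm1-/- hippocampus, and to 50.9 to 5988 CPM and 30.5 to 165 CPM in the striatum, with 0 of 6 and 4 of 6 lower before adjustment. Genes of the pallidum and basal forebrain summed to 33.4 to 175 CPM in WT and 10.8 to 63.7 CPM in Pcm1-/- hippocampus, with 3 of 7 lower before adjustment. Genes of the olfactory bulb and of neuroblasts summed to 42.1 to 147 CPM in WT and 107 to 267 CPM in Pcm1-/- striatum (1 of 8 higher before adjustment, near the share of all genes, median log2 fold change −0.091) and to 34.7 to 58.3 and 48.6 to 66.9 CPM in the hippocampus (0 of 8, median 0.30, with 3 above WT without overlap, where 17.1% of all genes did not overlap). Excitatory neuron genes summed to 1941 to 2449 CPM in WT and 2445 to 3035 CPM in Pcm1-/- hippocampus, with 1 of 7 higher and 1 lower before adjustment. Of all these lists, 0 genes passed the adjusted test in either region, and their part in the *Slc32a1* and *Calb2* values was not tested.

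**Figure D3:**
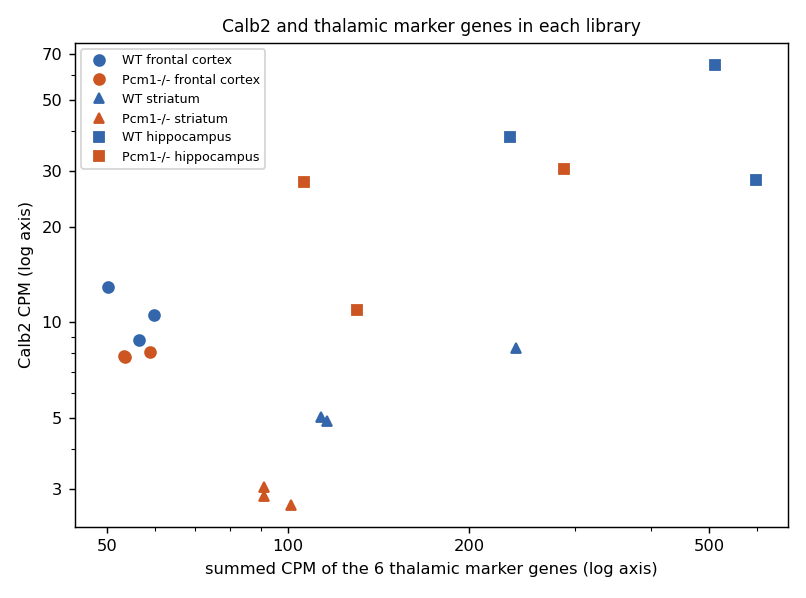
*Calb2* CPM (y, log axis) against the summed CPM of 6 thalamic marker genes (x, log axis) in each of the 18 libraries, circles for frontal cortex, triangles for striatum and squares for hippocampus, WT in blue and Pcm1-/- in orange. Pcm1-/- striatum lies below and left of WT striatum, whereas the frontal cortex libraries differ in *Calb2* over one narrow range of the thalamic sum.

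*Pvalb* and *Vip* in the hippocampus had opposite signs. *Pvalb* measured 40.3, 33.6 and 32.3 CPM in WT and 25.8, 30.8 and 28.2 CPM in Pcm1-/- hippocampus, without overlap, with a log2 fold change of −0.34 ± 0.11 and adjusted p = 0.425 in edgeR. *Vip* measured 3.89, 7.83 and 6.25 CPM in WT and 8.98, 11.9 and 6.55 CPM in Pcm1-/- hippocampus, which overlapped (0.59 ± 0.29, adjusted p = 0.547). Without WT replicate 1 the *Vip* value was 0.36, as it was without Pcm1-/- replicate 2. Frontal cortex *Vip* was 46.3 ± 3.20 CPM in WT and 50.9 ± 3.27 in Pcm1-/- mice (SD, n = 3 each), and in the striatum both genotypes stayed under 1 CPM. *Pvalb* overlapped both in frontal cortex (0.32 ± 0.22) and in striatum (−0.86 ± 0.51, adjusted p = 0.509). The frontal cortex difference was 0.060 without WT replicate 3 and 0.52 without WT replicate 1. The striatal one was −0.48 without Pcm1-/- replicate 1, −0.49 without WT replicate 3 and −1.62 without Pcm1-/- replicate 2. With lane in the model of the region the frontal cortex difference of *Pvalb* was 0.65. The model of all 18 libraries with lane gave −1.31 in the striatum.

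*Lhx6* and *Reln* overlapped between the genotypes in all 3 regions. For *Lhx6* the frontal cortex gave a log2 fold change of −0.026 ± 0.080, the striatum −0.095 ± 0.076 and the hippocampus 0.30 ± 0.20. *Reln* measured 149, 115 and 101 CPM in WT and 171, 126 and 154 CPM in Pcm1-/- striatum (0.31 ± 0.16, adjusted p = 0.436, edgeR, 0.18 without WT replicate 3 and 0.48 without WT replicate 1). For *Reln* the frontal cortex gave −0.30 ± 0.18 and the hippocampus −0.14 ± 0.15. The *Reln* value of the frontal cortex was −0.078 without WT replicate 3, and hippocampal *Lhx6* ranged from 0.14 without Pcm1-/- replicate 2 to 0.52 without WT replicate 2. Under the settings other than leaving out a library, striatal *Lhx6* ranged from −0.34 to −0.094 and striatal *Reln* from 0.30 to 0.56.

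**Figure D4:**
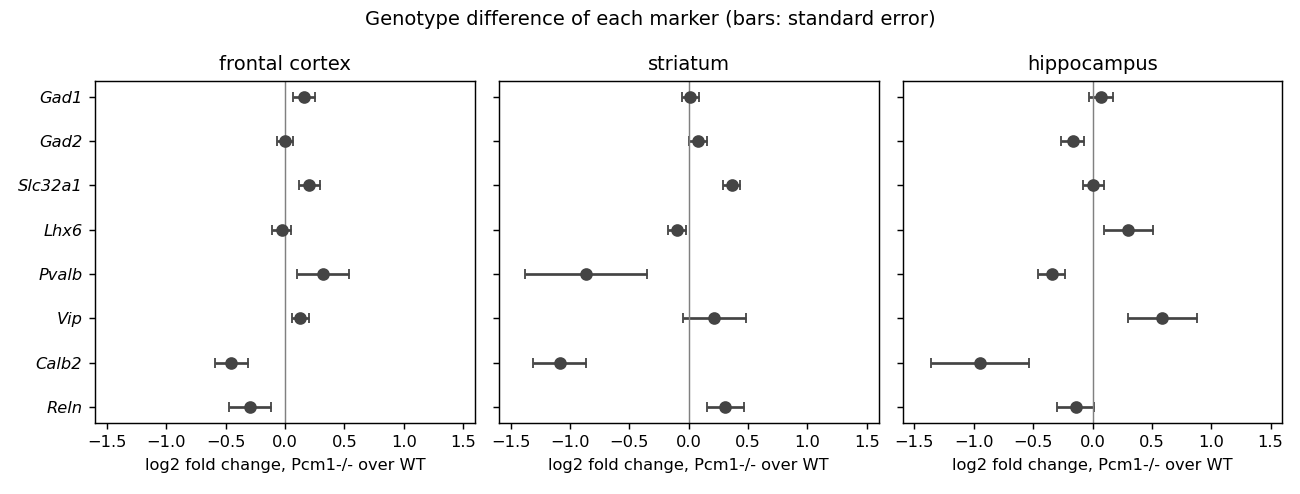
Log2 fold change of Pcm1-/- over WT for each marker gene in the 3 regions (x axis, bars are standard errors). *Calb2* lies left of 0 in every panel, *Slc32a1* has its highest value in the striatum (0.36), and no gene passed the adjusted test.

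Whether the genotype difference itself differed between regions was tested as an interaction over all 18 libraries. None of the 8 genes passed in any of the 3 region pairs, where 1, 1 and 0 of all genes did (0.0057%, 0.0057% and 0.0% of those tested), and none passed in DESeq2. At an unadjusted p under 0.05 there were *Pvalb* (difference of log2 fold changes −1.20 ± 0.56, adjusted p = 0.932, edgeR) and *Reln* (0.59 ± 0.27, adjusted p = 0.923) for striatum minus frontal cortex, where 5.29% of all genes had such a p. When 1 library was left out the *Pvalb* difference ranged from −1.95 without Pcm1-/- striatum replicate 2 to −0.82 without WT striatum replicate 3, and the *Reln* difference from 0.38 without WT frontal cortex replicate 3 to 0.76 without WT striatum replicate 1. For striatum minus hippocampus there was *Slc32a1* (0.34 ± 0.12, adjusted p = 0.857), where 4.46% of all genes did. For hippocampus minus frontal cortex there was no member (5.50% of all genes).

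Genes that act with the markers were compared in the same way. In the frontal cortex 3 of 26 further interneuron subclass genes were called higher in Pcm1-/- mice and 0 lower, where 1.74% of all tested genes were called in either direction. They were the neuropeptide genes *Sst* (195 against 144 CPM, log2 fold change 0.43 ± 0.083, adjusted p = 0.0426, edgeR) and *Cort* (7.38 against 2.72 CPM, 1.44 ± 0.25, adjusted p = 0.0312), and *Crhbp*, which encodes a binding protein of corticotropin-releasing hormone (24.3 against 16.0 CPM, 0.60 ± 0.089, adjusted p = 0.0188). Of 11 genes of fast-spiking cells and perineuronal nets, the potassium channel gene *Kcnc1* (0.33 ± 0.066, adjusted p = 0.0482) and the sodium channel gene *Scn1a* (0.46 ± 0.080, adjusted p = 0.0326) rose and 0 fell. All 5 kept their direction when any library was left out, but the adjusted p of each stayed under 0.05 without WT replicate 3 and passed above it without WT replicate 1, Pcm1-/- replicate 1 or Pcm1-/- replicate 2. *Scn1a* also kept its call without WT replicate 2, and *Crhbp* without WT replicate 2 or Pcm1-/- replicate 3. With lane in the model the adjusted p of the 5 genes ranged from 0.0595 to 0.140. The number of calls over all genes was 11 without Pcm1-/- replicate 1 and 29 with lane, of 306. The medians of these lists were 0.069 and 0.12, beside −0.0066 over all genes. Genes outside the interneuron lists rose as well in the frontal cortex, namely *Drd1*, *Penk* and the excitatory marker *Slc17a7*, so the calls were not limited to interneuron genes. The list of striatal projection neurons summed to 240 to 264 CPM in WT and 300 to 333 CPM in Pcm1-/- frontal cortex. The list of excitatory neurons summed to 2535 to 2601 against 2918 to 3093 CPM. The genotypes overlapped in neither sum. Oligodendrocyte and microglial lists had lower values in the same libraries: before adjustment (p under 0.05, which 15.3% of all genes had in either direction) 5 of 6 oligodendrocyte genes were lower (summed level 1818 to 2462 CPM in WT and 1617 to 1718 in Pcm1-/- libraries, median log2 fold change −0.28), as were 5 of 6 microglial genes (302 to 405 against 259 to 294 CPM, median −0.30). The counts were 2 of 6 for endothelial genes (195 to 272 against 186 to 197 CPM, median −0.33) and 1 of 6 for astrocyte genes (1246 to 1556 against 1177 to 1329 CPM), which is near the share of all genes, and the astrocyte median was −0.0082. No gene of the oligodendrocyte, microglial, endothelial and astrocyte lists passed the adjusted test. The part of these lists, and of the projection and excitatory neuron lists, in the interneuron calls was not tested.

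The remaining lists had no call. In the frontal cortex these were 6 genes of GABA uptake and breakdown, 16 interneuron transcription factors, 9 genes of reelin signalling and 3 VIP receptors. In 3 of these lists the smallest p belonged to *Slc38a1* (glutamine transport, 0.24 ± 0.071, adjusted p = 0.156), *Prox1* (−0.31 ± 0.072, adjusted p = 0.0766) and *Vipr1* (0.22 ± 0.062, adjusted p = 0.142). In the striatum and hippocampus 0 genes of every list passed edgeR's adjusted test. In the striatum *Vipr1*, a receptor for VIP, had 0.46 ± 0.10 (adjusted p = 0.148) and *Prox1*, a transcription factor of *Vip* lineage interneurons among other cells, −0.59 ± 0.15 (adjusted p = 0.194). In the hippocampus the GABA transporter gene *Slc6a11* had −0.74 ± 0.13 (adjusted p = 0.383), *Abat*, which breaks GABA down, −0.32 ± 0.089 (adjusted p = 0.405), *Crhbp* 0.85 ± 0.15 (adjusted p = 0.391), and the homeobox genes *Dlx1* and *Dlx2* 0.43 ± 0.12 and 0.53 ± 0.15 (adjusted p = 0.405 each).

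Genes whose levels followed a marker most closely were ranked among 12870 genes whose average log2 CPM was 1 or more. These correlations describe 18 libraries that share animals and regions, and no test was made. Over all libraries *Gad1* was nearest to *Slc32a1* (Pearson r = 0.980) and *Gad2* to *Rgs9* (r = 0.993), a signalling regulator of striatal projection neurons. *Slc32a1* was nearest to *Ptpn5* and *Rgs2* (r = 0.993 each), *Vip* to *Pak1* (r = 0.992), *Reln* to *Tln2* (r = 0.987), *Calb2* to *Shisal1* (r = 0.942) and *Pvalb* to *Cerk* (r = 0.889). *Pvalb* had the lowest of these 7 leading values.

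After the 6 group means were taken out, what is left is how libraries of a group deviate together. *Pvalb* then went with *Hapln4* (r = 0.973), which encodes a link protein of perineuronal nets, and with *Kank4* (r = 0.948). *Hapln4* measured 25.3, 37.3 and 49.3 CPM in WT striatum and 13.3, 30.6 and 19.4 CPM in Pcm1-/- striatum, the same order of libraries as *Pvalb* had in each. In WT frontal cortex replicate 3 was lowest for both genes, at 33.1 CPM of *Pvalb* and 135 CPM of *Hapln4*. *Calb2* went with *Cntn6* (r = 0.919), *Lhx6* with *Prkar1b* (r = 0.973), *Reln* with *Epg5* and *Cltc* (r = 0.960 each), *Vip* with *Chrm4* (r = 0.928), *Gad1* with *Amn* (r = 0.900), *Slc32a1* with *March2* (r = 0.836) and *Gad2* with *Mtmr7* (r = 0.857). Among the markers themselves the within-group correlation was 0.69 for *Vip* with *Lhx6*, 0.58 for *Gad1* with *Gad2*, 0.56 for *Gad1* with *Slc32a1* and −0.72 for *Pvalb* with *Reln*.

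**Figure D5:**
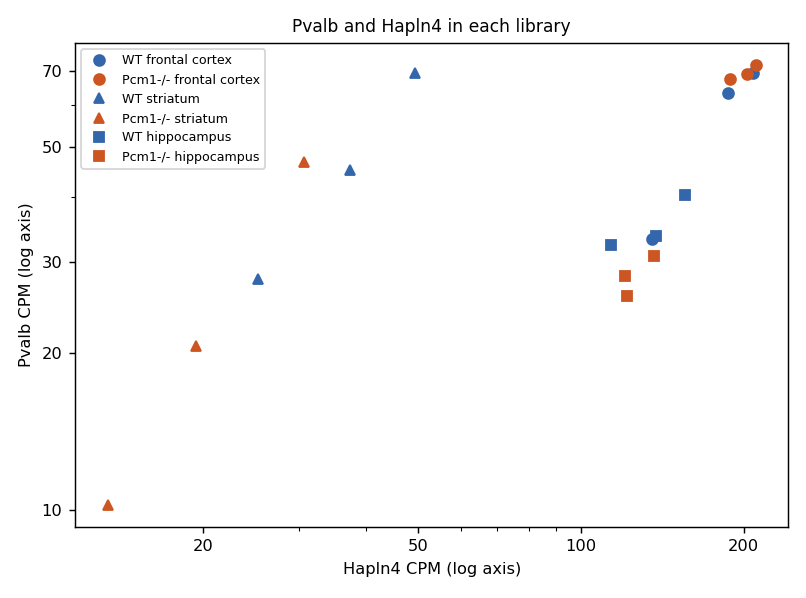
*Pvalb* CPM (y, log axis) against *Hapln4* CPM (x, log axis) in each of the 18 libraries, circles for frontal cortex, triangles for striatum and squares for hippocampus, WT in blue and Pcm1-/- in orange. Striatal libraries rise from 10.2 to 69.4 CPM of *Pvalb* over 13.3 to 49.3 CPM of *Hapln4*, apart from the libraries of the other regions.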

How the data were processed

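Libraries were made with a stranded mRNA kit from bulk tissue. The authors trimmed the reads, aligned them with STAR to GRCm38 (release r73 per the paper), counted them on genes with HTSeq and deposited raw counts, 1 file per library, without normalization. The strand setting is not given in the sources used here. Rows that name no gene were left out, and 86.8% to 89.2% of the rows' total lay on genes. Symbols, positions and exon lengths came from GENCODE M21 on GRCm38, and 36639 of 38561 identifiers had a symbol. Promoter windows came from RefSeq GRCm38.p6.

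Groups came from the sample titles. Counts were tested in edgeR 4.0.16 (R 4.3.3) with TMM factors and the quasi-likelihood test. Genes reaching 10 counts in 1 or more libraries were kept, and p-values were Benjamini-Hochberg adjusted over 17545 genes. Genotypes were compared in the 6 libraries of a region, regions in the 9 libraries of a genotype, and interactions in all 18. Adjusted p under 0.05 was a call. Standard errors are the size of the log2 fold change divided by the root of F. CPM used TMM factors over 18 libraries, and log2 CPM a prior count of 2. Alternatives were DESeq2 1.42.0, its size factors, other filters, lane, blocks and leaving out libraries. Steps were tested on simulated data. Any 2 libraries of a group differed beyond sampling noise (chi-square per degree of freedom of 7.01 or more in 18 pairs). Precision was taken from the spread between libraries. In Pcm1-/- mice the replicate numbers follow the animals in the file names and in WT mice the striatum numbers do not. Libraries of 1 animal correlated at 0.267 (WT) and 0.198 (Pcm1-/-) across regions after removal of group means, against −0.133 and −0.0979 for different animals.

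The marker genes were given by name, and they and the other lists, tests and alternatives were chosen with earlier results of these data known. Named genes are the 8 markers, *Pcm1*, at most 4 called genes per list and region or, with none called, at most the 2 with the smallest p, and the 3 (2 within groups) most correlated genes per marker. *Tcf7l2*, as the single thalamic gene shown, was chosen after its values were seen. Of 140 genes on the other lists, 139 were found. The gene nearest to *Lhx6* over all libraries is not reported here.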

Additional observations from a re-analysis of the deposited data

How the results depend on the processing

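Of the 8 marker genes, 0 passed in any comparison of Pcm1-/- with WT under any alternative except DESeq2 in the striatum, which called 2, *Slc32a1* and *Calb2*. In comparisons of the genotypes, leaving out a library kept direction and call in 132 of 144 values and the other settings in 174 of 184. In comparisons of regions these counts were 415 of 432 and 274 of 288, and in differences of the genotype effect 424 of 432 and 117 of 120. Leaving out a library from the last kind, and the lane and library alternatives for *Sst*, *Cort*, *Crhbp*, *Kcnc1* and *Scn1a*, were chosen after seeing the data. The cause of the changes was not tested.

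Of all genes, DESeq2 called 687 (frontal cortex), 488 (striatum) and 212 (hippocampus), where edgeR called 306, 5 and 3. Without a filter on low counts the frontal cortex had 505 and the striatum 61. A model of all 18 libraries gave 176, 54 and 205, the same with lane 95, 8 and 160, and lane within the frontal cortex 29. Leaving out 1 library gave 11 to 825, 2 to 5 and 1 to 11. The highest frontal cortex count came without WT replicate 3 and the lowest without Pcm1-/- replicate 1. With the replicate number as a block the counts were 665, 3 and 9, and the block changed no call of a marker gene between genotypes. Libraries of the 2 genotypes with the same number correlated at 0.167, −0.0823 and 0.265 on average after removal of group means. Their lowest values were 0.0428, −0.269 and 0.0955. Libraries with different numbers correlated at −0.0833, 0.0444 and −0.130 on average. The numbers were not taken as pairs in the main test. In the frontal cortex and hippocampus every same-number pair was positive, and what these pairs share was not tested. In regions, the replicate block gave *Calb2* in WT striatum against frontal cortex adjusted p = 0.00468 and *Gad1* in WT hippocampus against frontal cortex 0.0437.

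Directions that turned belonged to differences that did not pass the test. In the frontal cortex *Gad2* had −0.00085 with DESeq2 size factors, −0.00080 in DESeq2, −0.00025 with edgeR's own filter, −0.038 with lane in the region and −0.0038 in the model of 18 libraries with lane, and *Lhx6* had 0.036 and 0.027 in the last 2. That model gave striatal *Gad1* −0.097. With lane as a factor the striatum minus frontal cortex difference was −0.089 for *Vip* and 0.055 for *Calb2*, and striatum minus hippocampus 0.26 for *Calb2*. Leaving out 1 library gave ranges of −0.053 to 0.068 for *Gad2* and −0.081 to 0.019 for *Lhx6* in the frontal cortex, −0.021 to 0.055 for *Gad1* in the striatum, and −0.018 to 0.16 for *Gad1*, −0.070 to 0.053 for *Slc32a1* and −0.25 to 0.011 for *Reln* in the hippocampus. For differences of the genotype effect these were −0.074 to 0.29 for *Vip* (striatum minus frontal cortex), −0.19 to 0.025 for *Gad1* and −0.053 to 0.33 for *Reln* (hippocampus minus frontal cortex), and −0.57 to 0.13 for *Calb2* and −0.18 to 0.012 for *Gad1* (striatum minus hippocampus). *Pvalb* between regions ranged from −0.60 to 0.049 for WT striatum against frontal cortex and from −0.87 to 0.27 for Pcm1-/- striatum against hippocampus. *Calb2* kept its sign in each region when any library was left out (−0.57 to −0.30, −1.22 to −0.80 and −1.22 to −0.55), as did striatal *Slc32a1* (0.30 to 0.40).

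Groups of 3 libraries limit the precision, and bulk tissue gives no value per cell type.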
